A study of Gallus gallus with 2 samples.

Results

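Efflux pumps of the ATP-binding cassette (ABC) family were followed in the ileum of chickens fed corn or paddy rice, with P-glycoprotein, the product of ABCB1, compared with its relatives. The genes asked for were ABCB1, ABCB4, ABCB11, ABCC1, ABCC2, ABCC3, ABCC4, ABCC5, ABCC6 and ABCG2. ABCB1 was chosen by its ratio of paddy rice over corn on these same 2 arrays, so its ratio is a description and supports nothing, and the other pumps were added as its relatives. Of the 10 genes, 9 had a probe set that the array annotation gives to 1 gene only, 26 probe sets in all, out of 13008 named genes and 37693 chicken probe sets. ABCB4 is not among the 9, because the gene table used here lists ABCB4 as an older name of the chicken gene now called ABCB1.

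The control array held pooled ileal RNA of 3 male White Leghorn chicks fed the corn diet, and the other array held pooled ileal RNA of 3 male White Leghorn chicks fed the paddy rice diet. Either grain made up 650 g/kg of its diet, the diets were eaten for 2 wk from 1 wk of age, and tissue was taken at 3 wk. The rest of the diet, with soybean protein extract, soybean oil, vitamins, minerals and amino acids, was shared, but according to the methods crude protein and metabolizable energy were not matched. The authors picked the pooled birds as those with MUC2 levels in ileum close to the mean of their diet, and a single array per diet allows neither a replicate error nor a test, so each ratio compares 1 pool with another.

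ABC pumps use the energy of ATP to carry compounds out of cells. In the intestine, P-glycoprotein and ABCG2 sit on the side of the enterocyte that faces the lumen and return drugs, plant compounds and toxins to it. Pumps of the ABCC family, also called multidrug resistance-associated proteins, carry mainly organic anions, among them compounds joined to glutathione, glucuronic acid or sulfate. In mammals ABCC2 works on the apical side, while ABCC1 and ABCC3 work on the basolateral side and pass their loads towards the blood. The arrays read RNA only and carry no information on the side of the membrane.

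The signals were scaled to a mean of 500.1 on both arrays after trimming 2% at each end, and the median log2 ratio of all named genes was -0.0029. A level of background of 44.1 on corn and 45.1 on paddy rice was set from 689 probe sets whose identifiers are not those of chicken transcripts. Enterocyte markers were well above it: all 10 that were measured exceeded background on both arrays, and the ratios ran from 0.881 to 1.12. In whole tissue, fewer cells of a type and less RNA per cell cannot be told apart. Genes and probe sets are called bright here at a mean signal of 522 or more, the 75th percentile of chicken probe sets, and mid-level at 111 or more, the median. The SD of log2 ratios between the probe sets of 1 gene was 0.16 among bright probe sets (1663 genes) and 0.27 among mid-level or brighter ones (4028 genes).

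ABCB1, which encodes the drug efflux pump P-glycoprotein, was about doubled on the paddy rice array on both of its probe sets. The brightest probe set of ABCB1 read 4751 on the corn array and 9178 on the paddy rice array (ratio 1.93). The second probe set of ABCB1 read 4488 and 8964 (ratio 2.00). The 2 log2 ratios of ABCB1 differed by 0.048, less than the SD between probe sets of a gene at such signals. Both probe sets carry the same cluster number of the array design, so they are not independent readings. On corn they stood at the 96.8th and 96.6th percentile of all chicken probe sets, and on paddy rice both stood at the 98.7th.

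Few bright genes had a ratio as high. Of 5782 bright named genes, 5 had a ratio of 1.93 or more, ABCB1 included, and 95% of these genes lay between 0.776 and 1.30. Among the 834 named genes at or above the 97th percentile, a limit set after the values were seen, only ABCB1 and MHCY4 were above 1.5. MHCY4, a gene of the chicken MHC-Y region, read 11722 and 18351 (ratio 1.57). As ABCB1 was picked for its ratio, this place in the order is part of the choice.

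**Figure D1:**
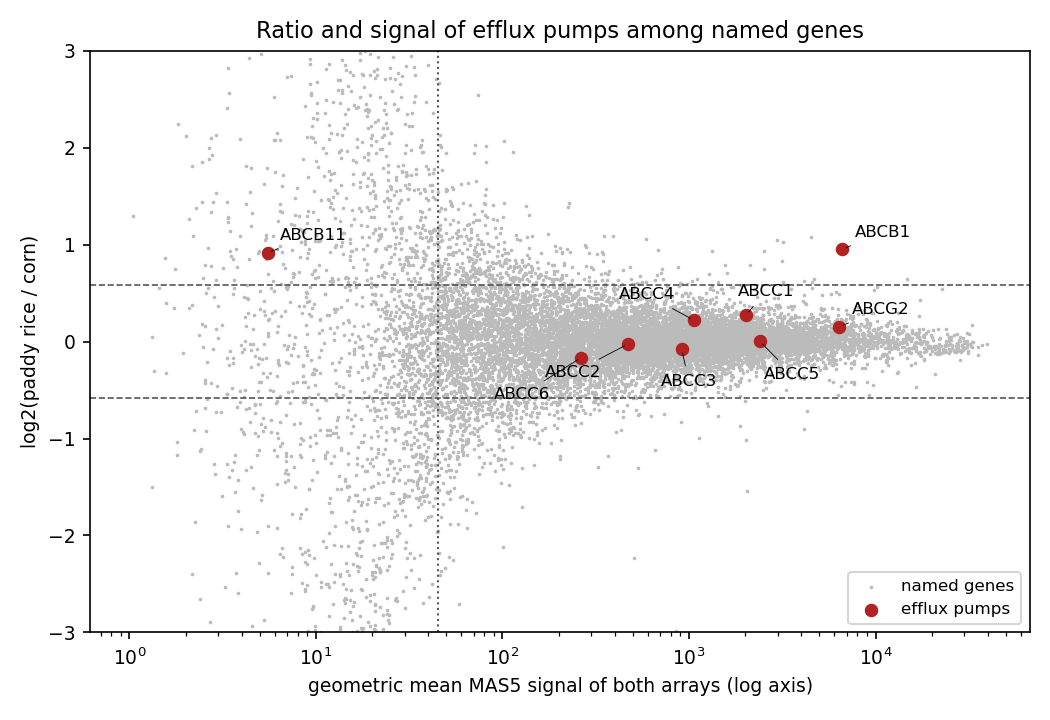
Each grey point is a named gene, with the geometric mean of its signals on both arrays (log axis) against log2 of paddy rice over corn on its brightest probe set. Red points are the 9 efflux pumps, dashed lines mark ratios of 1.5 and 0.67, the dotted line marks the level of background, and 142 genes beyond a log2 ratio of 3 in size are not drawn. ABCB1 stands above the dashed line at a bright signal, ABCB11 stands above it at a signal below background, and the other 7 pumps lie between the lines.

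The other bright apical pump, ABCG2, which exports drugs, plant compounds and, in mammals, urate, had ratios slightly above 1 on its bright probe sets. The brightest probe set of ABCG2, marked as shared, read 6064 on the corn array and 6742 on the paddy rice array (ratio 1.11). A second probe set of ABCG2, not marked as shared, read 5557 and 6749 (ratio 1.21), and the third read 104 on each array. ABCG2 was read about as brightly as ABCB1, at signal percentiles of 97.7 on corn and 98.0 on paddy rice. Its log2 ratio was 0.15, or 0.28 on the second probe set, against 0.95 for ABCB1 on the same pair of arrays.

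ABCC2, the apical exporter of conjugated anions, and ABCB11, the bile salt export pump of the liver, had 1 probe set each. ABCC2 read 475.9 on the corn array and 467.9 on the paddy rice array (ratio 0.983). The probe set of ABCC2 is marked as shared between transcripts. ABCB11 read 4.01 and 7.57, both below background, so that no size of a difference can be taken from them. A low readout of ABCB11 shows only that this probe set was not above background in ileum.

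Of the pumps that in mammals face the blood side of epithelia, ABCC1 and ABCC4 had ratios slightly above 1 and ABCC3 and ABCC5 had ratios near 1. ABCC1, an exporter of glutathione conjugates and leukotriene C4, read 1837 on the corn array and 2222 on the paddy rice array where it was brightest (ratio 1.21). Ratios on the remaining 3 probe sets of ABCC1 were 0.987, 1.13 and 0.858, so that the 4 fell on both sides of 1, and all are marked as shared between transcripts. ABCC4, an exporter of cyclic nucleotides and prostaglandins whose side differs between tissues, read 986.3 and 1149 (ratio 1.16). A second probe set of ABCC4 read 140.5 and 153.9 (ratio 1.10).

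The 3 dim probe sets of ABCC4 disagreed. The brightest of these read 116.1 on the corn array and 41.4 on the paddy rice array, the latter below background. Another read 7.93 and 39.7 and the dimmest 4.26 and 5.08, all below background. These dim readings point in opposite directions and give no size for ABCC4.

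ABCC3, a basolateral exporter of glucuronides and bile acids, read 935.6 and 889.8 on its brightest probe set (ratio 0.951). The dimmer probe set of ABCC3 read 71.9 and 52.1 (ratio 0.724), and it is the only one of the pair not marked as shared. ABCC5, an exporter of cyclic nucleotides, was even on its brighter pair of probe sets. It read 2392 on the corn array and 2398 on the paddy rice array on the brightest probe set (ratio 1.00), and 1503 and 1491 on the next (ratio 0.992). The third probe set of ABCC5 read 71.2 and 60.3 (ratio 0.847).

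ABCC6, known in mammals for the release of ATP from hepatocytes and for keeping soft tissue free of mineral, read 279.7 and 249.5 (ratio 0.892). The second probe set of ABCC6 read 149.6 and 135.4 (ratio 0.906), and the other 3 were below background on both arrays. ABCC6 lies next to ABCC1 in the gene order of the GRCg7b assembly, and the 2 neighbours stood on opposite sides of 1 on their brightest probe sets.

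**Figure D2:**
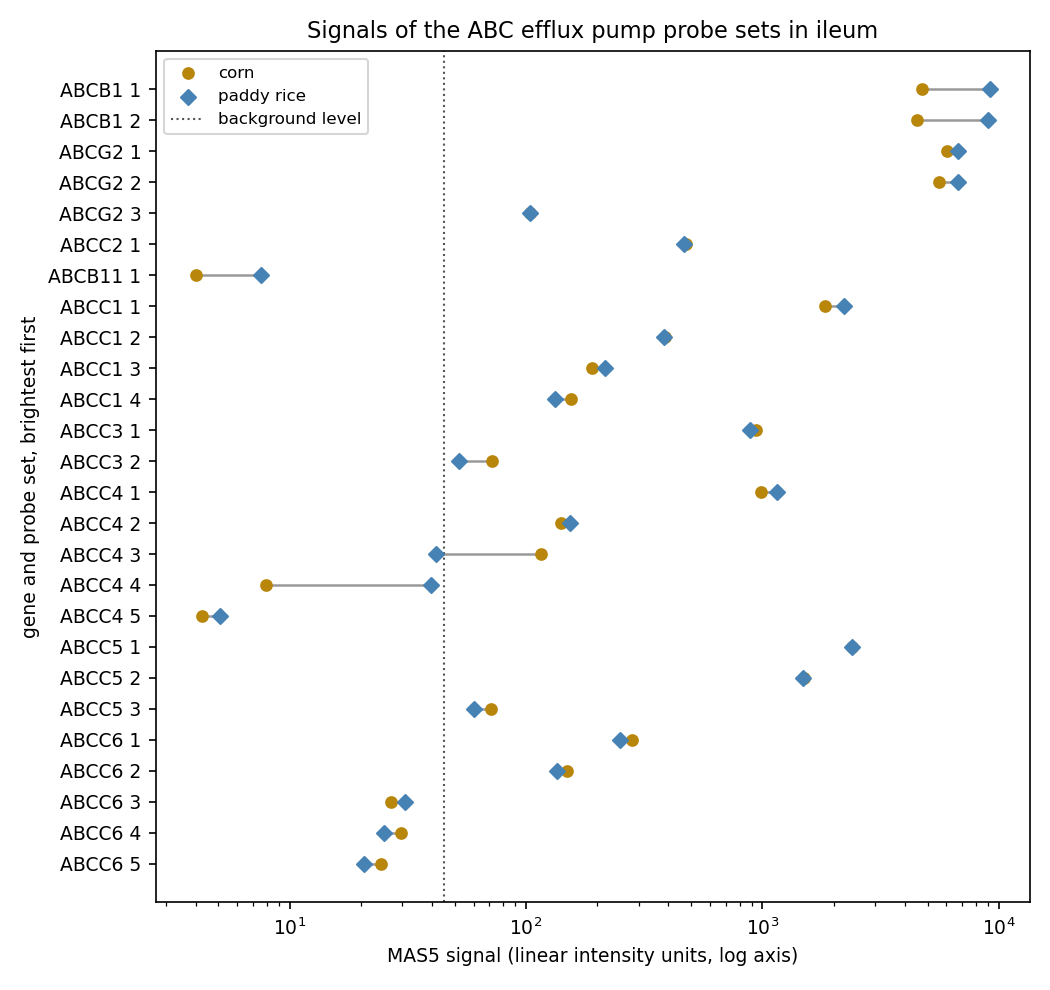
Signals of all 26 probe sets of the 9 efflux pumps on a log axis, with circles for corn, diamonds for paddy rice and a dotted line at the higher of the levels of background. Probe sets are numbered from the brightest within a gene. The 2 probe sets of ABCB1 show the widest gap among probe sets above background on both arrays, and the wide gaps of ABCB11 and of ABCC4 involve signals below background.

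By the threshold of the methods, a ratio above 1.5, 2 of the 9 pumps were past it on their brightest probe set, ABCB1 and ABCB11, and none was below 0.67. Over all named genes 8.27% were above 1.5 and 8.57% were below 0.67. No filter on signal was used for these shares. The paper reports far fewer probe sets past the same limits, so the shares are not its own rate of calls. Above background on both arrays, 8 pumps were left, of which ABCB1 alone was above 1.5, where 3.24% of named genes above background were above 1.5 and 3.01% below 0.67. Among mid-level or brighter genes the same count was 1 of 8, where 1.87% of named genes were above 1.5 and 1.71% below 0.67. Among bright genes it was 1 of 6, where these shares were 0.623% and 0.329%. ABCB1 is in each of these counts by choice, and without it none of the 7 remaining pumps above background was past either threshold.

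At the level of probe sets, 4 of 26 were above 1.5 and 1 was below 0.67, against 12.8% and 13.1% of the probe sets of all named genes. These 5 were the pair of ABCB1, that of ABCB11 and 2 dim ones of ABCC4. The other pumps had 14 probe sets that were mid-level or brighter, with 7 above a ratio of 1 and 7 below, from 0.858 to 1.21. The median log2 ratio of the 9 pumps was 0.15, and that of the 8 above background was 0.079, against -0.0012 over the 10737 named genes above background. Without ABCB1 the median of the 7 pumps above background was 0.0042.

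ABCB1 exceeded the next highest pump above background, ABCC1, by 0.68 in log2 ratio, and the median of the 8 other pumps, ABCB11 included, by 0.87. The pumps other than ABCB1 that were above background spanned log2 ratios from -0.17 to 0.27. On brightest probe sets their whole span is therefore smaller than the distance from ABCB1 to the next pump. This depends on the probe set used. Without shared probe sets ABCC3 was at -0.47 and ABCG2 at 0.28, and the span was not smaller than that distance. Over all settings of the processing the ratio of ABCB1 lay between 1.92 and 1.96. The signal filters and the omission of shared probe sets could not change it, as its brightest probe set is bright and not shared. The median and mean over probe sets only combine the pair from the same cluster. This narrow range therefore says little on the error of the ratio.

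**Figure D3:**
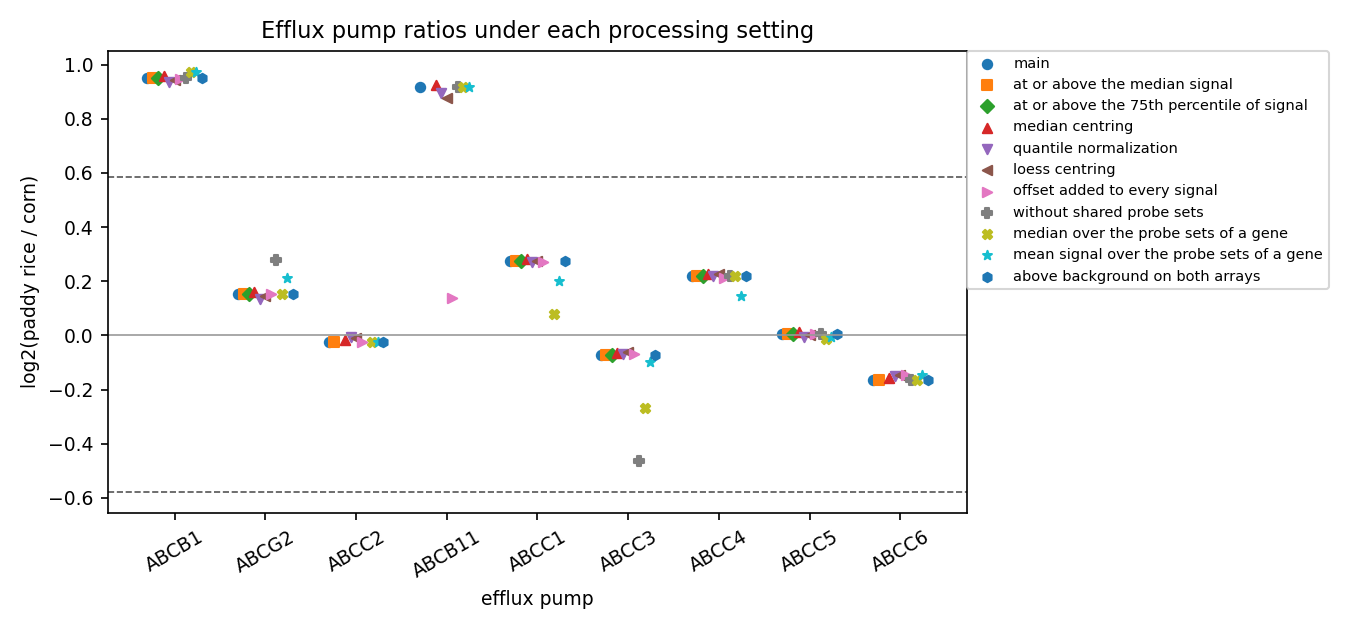
Log2 of paddy rice over corn for each efflux pump under each processing setting, a marker per setting, with dashed lines at ratios of 1.5 and 0.67. The values of ABCB1 stay together, while ABCB11 drops when a constant is added to every signal and ABCC1, ABCC3 and ABCG2 depend on the probe set used.

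Chicken carries a further gene of the P-glycoprotein type, ABCB1LA, which stands directly beside ABCB1 in the gene order of GRCg7b. ABCB1LA is not among the 10 genes asked for and was singled out after its values were seen. Its only probe set, marked as shared, read 113.6 and 143.6 (ratio 1.26). How far the probes of either gene read the other was not tested.

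Across the rest of the ABC family, 32 further genes were measured, and on their brightest probe sets none was above 1.5 and 4 were below 0.67, against 8.27% and 8.57% of all named genes. The 28 of these above background on both arrays had a median log2 ratio of 0.085, with 19 above 1 and 9 below. Of the 10737 named genes above background, 5351 were above 1. The median of the 28 ran from 0.093 to 0.11 under 3 other scalings. ABCG4, a sterol transporter studied mostly in brain, was the 1 gene of these 28 below 0.67, against 3.01% of named genes above background. On its only probe set ABCG4 read 86.2 and 46.1 (ratio 0.535), the latter barely above the background of 45.1. ABCA2 with 64.9 and 34.3, ABCA12 with 66.5 and 40.2, and ABCA4 with 16.8 and 1.96 were also below 0.67, but below background on at least 1 array.

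The sterol exporters of the family were read on both sides of the background. ABCG5 and ABCG8, the paired subunits that return plant sterols and cholesterol to the lumen, are neighbours in the genome and had like ratios. ABCG5 read 1727 and 2245 (ratio 1.30), and ABCG8 read 424.3 and 561.2 (ratio 1.32). ABCA1, which loads cholesterol onto apolipoprotein A-I, read 67.4 and 71.0 (ratio 1.05). ABCG1, a partner of ABCA1 in cholesterol export, read 41.0 on the corn array, below background, and 58.8 on the paddy rice array.

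CFTR, the chloride channel of the ABCC family, read 444.6 and 463.7 (ratio 1.04). On brightest probe sets, the highest ABC ratio outside the pumps belonged to ABCB5, a relative of ABCB1 noticed after its values were seen. ABCB5 read 247.7 and 356.1 (ratio 1.44). Its 3 brightest probe sets had ratios of 1.44, 1.39 and 1.63, and its dimmest went the other way with 22.7 and 10.2, both below background. The 11 measured genes of the ABCC subfamily, pumps included, were all above background on both arrays. On their brightest probe sets the ratios ran from 0.720 to 1.22, and none reached a threshold. Of all named genes above background 3.24% were above 1.5 and 3.01% below 0.67, so 0 of 11 is near these shares. A dimmer probe set of ABCC9, above background on both arrays, was barely above 1.5, reading 183.3 and 275. Dim probe sets of ABCC4 were also past a threshold, but below background on at least 1 array.

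**Figure D4:**
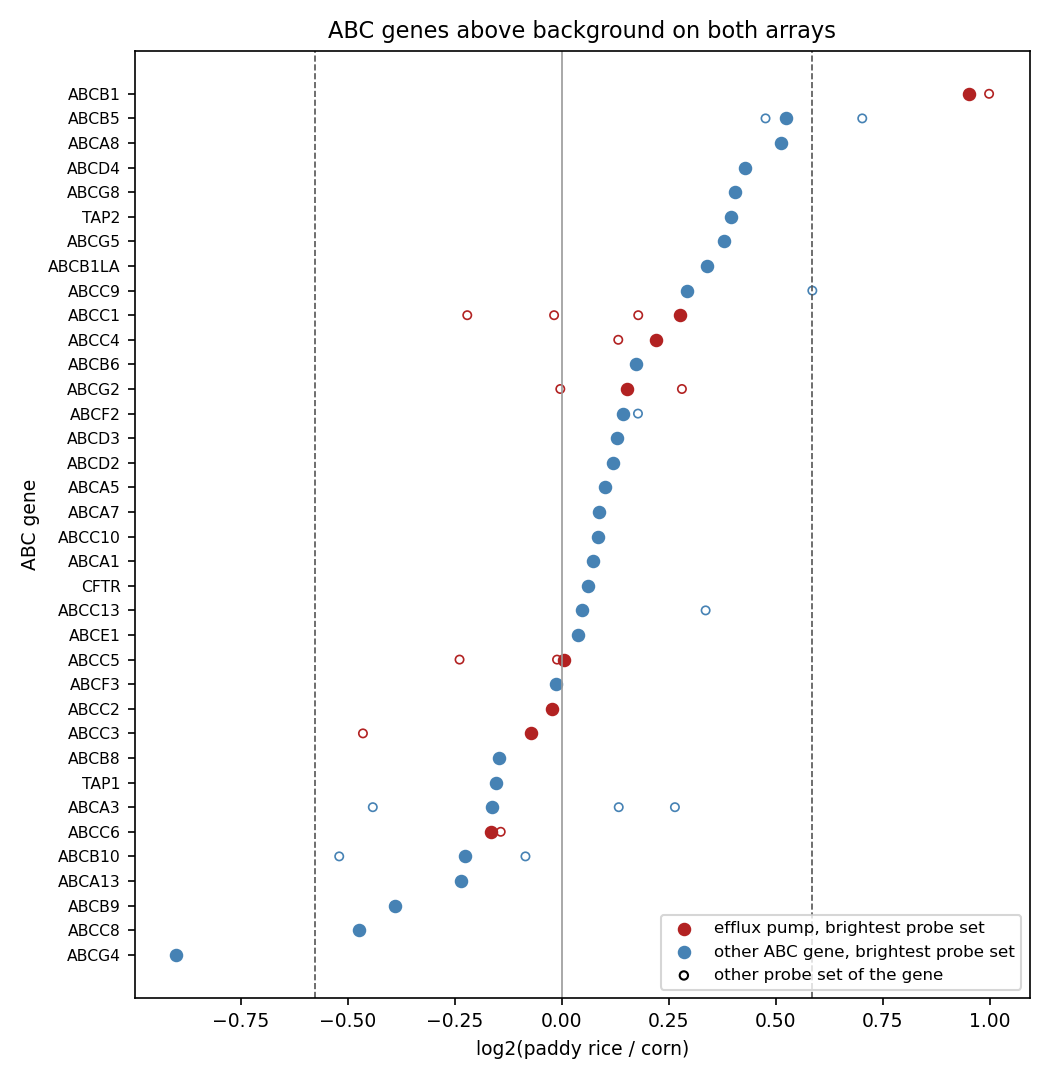
Log2 of paddy rice over corn for the 36 ABC genes above background on both arrays, ordered by ratio, with filled points for the brightest probe set and open points for other probe sets above background. Red marks the efflux pumps and blue the other ABC genes, and dashed lines stand at ratios of 1.5 and 0.67. ABCB1 is highest and ABCG4 lowest, and ABCB1 is the only gene whose brightest probe set is beyond the upper line.

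Receptors and transcription factors that control drug transporters were measured beside the pumps. In birds the xenobiotic receptor CXR, encoded by NR1I3, does the work that PXR and CAR share in mammals. NR1I3 read 639.2 and 664.3 (ratio 1.04). NFE2L2, the factor of the antioxidant response, read 7350 and 8226 (ratio 1.12). The part of these regulators in the ratio of ABCB1 was not tested.

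The bile acid receptor gene NR1H4 read 4066 and 3717 (ratio 0.914). NR0B2, a repressor that bile acids induce through NR1H4, was above 1.5 on its only probe set, reading 741.2 and 1122 (ratio 1.51). AHR1A, the aryl hydrocarbon receptor gene that carries AHR as an older name, read 2462 and 2326 (ratio 0.945). AHR2, another gene for such a receptor, was dim and read 98.6 and 104.8 (ratio 1.06). Of the 35 genes of this list measured under their current symbols, AHR1A not among them, 2 were above 1.5 and 2 below 0.67, where all named genes gave 8.27% and 8.57%. On brightest probe sets, only NR0B2 was past a threshold among the 32 above background on both arrays. This made 1 of 32 above 1.5, against 3.24% of named genes above background, and the median log2 ratio of these 32 was 0.015. Dimmer probe sets of some of these genes were past a threshold. PPARG had ratios of 1.28 on its brightest probe set and 1.89 and 1.73 on dimmer ones. RXRA was at 0.863 on its brightest probe set and 1.55 on a dimmer one. Dimmer probe sets of TCF7L2 and NCOA2 were at 1.53 and 0.591. RXRG with 13.1 and 88.4, RELA with 45.7 and 8.81, and FOS with 18.6 and 7.81 were each below background on at least 1 array.

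Genes of apical anchoring and trafficking mostly had ratios slightly below 1. Ezrin, encoded by EZR, links membrane proteins to actin and read 17560 and 16238 (ratio 0.925). Of the 12 measured genes of apical anchoring and trafficking, 10 had ratios below 1, where 6564 of the 13008 named genes did. On brightest probe sets the 11 above background ran from 0.701 for CAV1 to 1.06 for SLC9A3R2, with a median log2 ratio of -0.070. Their further probe sets of mid-level or brighter signal ran from 0.683 for SLC9A3R2 to 1.16 for MSN. MYO5B, a motor of apical vesicle traffic, was below 0.67 with signals of 39.1 and 23.0, both below background.

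Carriers that bring organic anions, cations and bile acids into cells, or work in series with the pumps, were also measured. Of 30 such genes, 2 were above 1.5 and 4 below 0.67, against 8.27% and 8.57% of all named genes. On brightest probe sets, the 22 above background held 1 above 1.5 and none below 0.67, against 3.24% and 3.01% of named genes above background. Their median log2 ratio was 0.047. SLC22A13, an organic anion carrier, read 133.6 and 213.3 (ratio 1.60). The other 5 were below background on at least 1 array: SLC47A2 with 14.5 and 74.1, SLCO1B1 with 15.3 and 4.48, SLCO1B3 with 20.1 and 9.29, SLCO1C1 with 35.1 and 21.7, and SLC28A3 with 59.9 and 36.3. A dimmer probe set of SLC47A1 was also below 0.67, reading 429.6 and 277.4 (ratio 0.646), against a ratio of 0.884 on its brightest. Carriers of the bile acid route in ileum were bright, and SLC10A2, which takes bile acids up, and SLC51A were close to even at ratios of 1.02 and 1.06. SLC51B, which encodes the partner subunit of SLC51A in basolateral export, read 1118 and 1501 (ratio 1.34). This was outside the range that held 95% of bright genes. So were the bright ABC genes TAP2 at 1.31 and, by a small margin, ABCG5.

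P-glycoprotein is also made in capillary endothelium and in lymphocytes, so markers of endothelium and of T and NK cells are given beside ABCB1. B cells and plasma cells had no list here. For these arrays the paper reports much lower IGJ and IGLL1, genes of immunoglobulin chains, with paddy rice. Of 10 endothelial genes, 4 had ratios above 1 and 6 below, and their summed signal was 5965 on the corn array and 5581 on the paddy rice array (ratio 0.936). Of the 9 above background on both arrays, 1 was above 1.5 and 2 below 0.67, against 3.24% and 3.01% of named genes above background. PECAM1 was at 0.595 and TIE1 at 0.651, ESAM was at 1.51, and ROBO4 went from 16.9, below background, to 55.5. Of 10 T and NK cell genes 9 had ratios below 1, where 6564 of the 13008 named genes did, and CD4 was at 1.29. Their summed signal was 24592 and 24104 (ratio 0.980). Such sums follow the brightest genes of a list, here GNLY with 14798 on the corn array and a ratio of 0.984. The dimmer CD5 and CD28 were at 0.736 and 0.753. CD3E and CD3D, which define T cells, were at 0.984 and 0.992, while LCK was below background on both arrays.

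Over the enterocytes and the remaining cell types that had a list the summed ratios ran from 0.836 to 1.11. For the 10 enterocyte genes the summed signal was 180815 and 176393 (ratio 0.976), with 8 of them below 1, where 6564 of the 13008 named genes were. The summed ratio was 1.07 for 9 macrophage genes, 0.998 for 6 smooth muscle genes, 1.07 for 6 fibroblast genes and 0.836 for 5 enteric neuron genes, of which 4 were below 1, with a median log2 ratio of -0.30 that was the lowest of the lists. Of these, ACTA2, an actin of smooth muscle, was at 1.51 on a dim probe set with 49.6 and 74.7. SNAP25, a synaptic gene, was at 0.613 on its brightest probe set and at 0.904 on another, almost as bright. Of 6 erythrocyte genes only HBAD and HBA1 were above background on both arrays, at ratios of 1.25 and 0.976. The summed ratio of 1.11 over the list also takes in genes below background on at least 1 array. Among these were HBBR with 10.7 and 21.7, HBE with 35.8 and 137.8 and HBZ with 57.0 and 6.46. The part of any cell type in the ratio of ABCB1 was not tested.

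**Figure D5:**
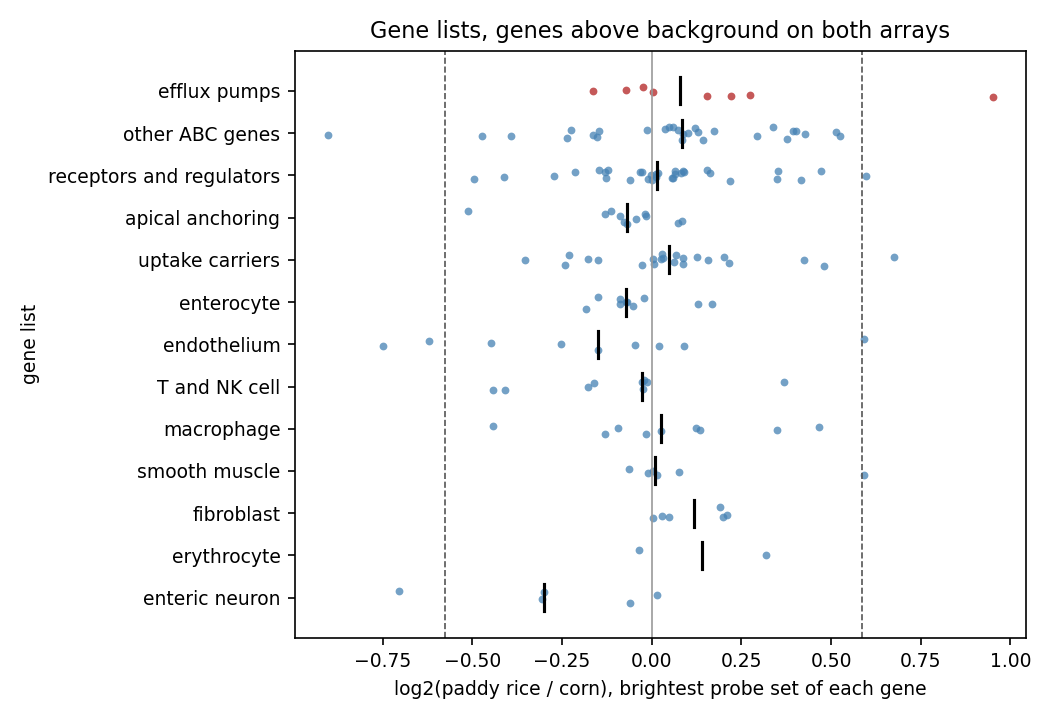
Log2 of paddy rice over corn of each gene above background on both arrays, by list, on its brightest probe set, with a black bar at the median of each list and dashed lines at ratios of 1.5 and 0.67. Points are spread vertically for legibility. ABCB1 is the single red point beyond the upper line, and the medians of the lists lie between -0.30 and 0.14.

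The 5 named genes nearest to ABCB1 in log2 signal on both arrays were GSTO2, CCN2, MSMO1, PTGR1 and CYP4A22, over 2 arrays and 13008 genes. GSTO2, a glutathione transferase of the omega class, was at a distance of 0.34 on the log2 scale, reading 5355 and 7502 (ratio 1.40). CCN2, a matrix-associated growth factor gene, was also at 0.34, with a ratio of 1.43. MSMO1, an enzyme of cholesterol synthesis, was at 0.43 with a ratio of 1.40. PTGR1, a reductase of prostaglandins and reactive aldehydes, had a ratio of 1.27 and CYP4A22, a fatty acid hydroxylase gene by its name, a ratio of 1.25. None of the 5 reached the ratio of ABCB1, and a likeness over 2 arrays describes level and ratio only.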

How the data were processed

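Total RNA of 3 birds per diet was pooled by the authors for each GeneChip Chicken Genome Array. The authors condensed the probes with MAS5 and deposited the resulting intensity, which is linear and was scaled array by array, for 38535 probe sets with no detection call. MAS5 also stands in the processing notes of the submitters. The table was used as deposited, with no further scaling.

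Of the chicken probe sets, 27166 had 1 gene in the platform's annotation, 177 had several and 10350 were unnamed. Current symbols came from RefSeq (GRCg7b) by Entrez identifier for 26851 of these, and the gene order of that assembly was used for neighbours only. No coordinates or sequences were used. Each gene was represented by its brightest probe set on average over both arrays, on the log2 scale, and the ratio was paddy rice over corn. Background was the 95th percentile of 689 probe sets not marked as chicken. Probe sets ending in _s_at, _x_at or _a_at were taken as shared. Genes named were all pumps, the 5 genes nearest to ABCB1, list genes past 1.5 or 0.67 (at most 6 a list), and a few of well known role.

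The members and lists were chosen with earlier results of these data known. List names without a match under the current symbol were not analysed here, except AHR, given as AHR1A outside the counts of its list. The number of arrays limits the precision. The alternatives were signal filters at the median and 75th percentile, centring on the median or by loess (fraction 0.3), quantile normalization, a constant of 31.4 (the 25th percentile) added to each signal, omission of shared probe sets, the median or mean of all probe sets per gene, ratio thresholds of 2 and 0.5, and, added after seeing the data, a signal above background on both arrays. The calculation of ratios and calls was checked on simulated signals, with known ratios set in bright genes only. The simulated spread was smaller than that between the probe sets of a gene, so this check gives no error for the real ratios. Calculations were made in Python 3.11.15 with pandas 2.3.3, numpy 2.4.6 and statsmodels 0.14.6.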

Additional observations from a re-analysis of the deposited data

How the results depend on the processing

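The count of pumps above 1.5, 2 as reported, was 1 with genes of mid-level or brighter signal, of bright signal, or above background on both arrays, and 1 with a constant (31.4) added to each signal, since ABCB11 was then left out or at 1.10. With a threshold of 2 the count was 0. No pump was below 0.67 in any setting. Without shared probe sets ABCC1 and ABCC2 had no value, ABCC3 was at 0.724 and ABCG2 at 1.21. With the median of all probe sets per gene ABCC3 was at 0.830 and ABCC1 at 1.06. The medians of the pumps, the ratio of ABCB1 and its distance from the median of the other pumps moved by less than the SD between probe sets of a gene in all 10 settings. For the ratio of ABCB1 the signal filters and the omission of shared probe sets could give no other value. Signals close to background limit ABCB11 and the dim probe sets of ABCC4 and ABCC6. No paired analysis was possible because each diet has 1 array.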

Other observations

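The genes on either side of the pumps in the gene order of GRCg7b were read on the same arrays, and only some of them are given here. Beyond ABCB1LA, the next gene on that side of ABCB1 is CROT, a peroxisomal carnitine transferase gene, which read 9251 on the corn array and 9388 on the paddy rice array (ratio 1.01). On the other side RUNDC3B read 700.2 and 655.2 (ratio 0.936). None of these measured neighbours of ABCB1 was past 1.5, where 8.27% of all named genes were. SLC25A40, beyond RUNDC3B, had no value. Beside ABCC4 lies CLDN10, a tight junction gene, which read 8412 and 9334 (ratio 1.11). Beside ABCC3 lies CACNA1G, a calcium channel gene, which read 171.1 and 113.3 (ratio 0.662), while ABCC3 itself was at 0.951. Of all named genes above background 3.01% were below 0.67. CLDN10 and CACNA1G were not picked by a rule set in advance. Of the other neighbours, DZIP1 near ABCC4 was at 1.42 and CYP2C23b near ABCG2 at 0.748.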
